A study of Homo sapiens with 60 samples.

Results

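Solute carriers (SLCs) are membrane proteins that move nutrients, ions, and metabolites across the plasma membrane and the membranes of organelles. The 9 genes described here are SLC19A2, SLC2A10, SLC2A6, SLC12A8, SLC22A23, SLC26A11, SLC25A1, SLC25A10, and SLC25A25, from families that carry vitamins, sugars, or organic and inorganic ions. They were chosen by their measured values, as SLC genes outside the metal and amino acid carrier families whose mRNA changed with a metal. Of 161 SLC genes tested, 25 met the call rule used here in at least 1 comparison of a metal with non-treated cells, and these 9 are among them. The call rule was an adjusted p under 0.05 in edgeR's quasi-likelihood test and a log2 fold change (LFC) beyond 1 in either direction. Just outside the LFC threshold lay SLC38A2 (0.95), SLC39A14 (0.95), and SLC12A4 (-0.99), all with mercury at 12 h. Just inside lay SLC4A8 (-1.03, arsenic at 24 h), SLC25A10 (-1.05, mercury at 24 h), and SLC25A25 (1.06, mercury at 3 h).

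The cells were 1321N1, a human astrocytoma line, and mRNA was sequenced from the 3′ end. Groups were non-treated cells and cells given 2.55 µM sodium metaarsenite (arsenic), 2.3 µM cadmium chloride (cadmium), or 20 µM mercury chloride (mercury), harvested after 1.5, 3, 6, 12, or 24 h, which makes 20 groups of 3 libraries. Each dose was set by the authors to kill the same small share of cells in a longer exposure. The series describes the 3 libraries of a group as technical, so that p values may not cover the spread between independent cultures, and as 1 tumor line the cells stand for no other astrocytes. Total counts ranged from 2215276 to 4404609 per library, and levels are given as CPM, the count scaled to the normalized library size. A count of 3 in a library, taken as the floor, corresponds to about 1 CPM. Of the astrocyte markers, VIM (median 4560 CPM), SOX9 (77.2 CPM), and GJA1 (20.8 CPM) were present, whereas GFAP, AQP4, ALDH1L1, S100B, and SLC1A2 had a median of 0 CPM. Fewer transcripts per cell and fewer cells with the transcript cannot be told apart in bulk RNA.

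Several of these carriers serve central metabolism. SLC19A2 brings thiamine, the precursor of the cofactor of pyruvate dehydrogenase, into the cell. SLC2A10 and SLC2A6 belong to the facilitative hexose carriers (GLUT10 and GLUT6) and sit largely on internal membranes. SLC25A1 exchanges mitochondrial citrate for malate, SLC25A10 exchanges dicarboxylates such as malate and succinate for phosphate, and SLC25A25 exchanges ATP-magnesium for phosphate across the inner mitochondrial membrane under the control of calcium.

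With mercury, 9 of the 9 genes met the call rule at some time point, in 10 of 45 gene and time combinations. Arsenic and cadmium each gave 1 such combination, SLC2A10 at 24 h and SLC19A2 at 12 h. SLC19A2, SLC2A10, SLC12A8, SLC22A23, SLC26A11, and SLC25A25 were higher and SLC2A6, SLC25A1, and SLC25A10 were lower. Since the genes were selected on these comparisons, the counts are a description. The share of all genes that met the call rule in at least 1 comparison was not counted. Counts of SLC, family, or list genes called at least once thus have no share over all genes beside them. The shares that follow are of values, not of genes called at least once. Over all 12341 genes tested and all 15 comparisons with non-treated cells, 1.4% of the values met the call rule. The share was 0.486% with mercury at 3 h, 1.73% with cadmium at 12 h, 3.75% with mercury at 12 h, 3.31% with arsenic at 24 h, and 7.46% with mercury at 24 h. The 9 genes passed the filter on low counts, but SLC19A2, SLC2A10, and SLC12A8 reached the filter's level in only 16, 7, and 9 of 60 libraries, of which 1, 0, and 1 were non-treated. These 3 genes thus entered the test through the groups in which they were high. With LFC from DESeq2 shrunk by ashr, 4 of the mercury calls remained (SLC19A2 and SLC22A23 at 12 h, SLC2A6 and SLC12A8 at 24 h). The others fell below the LFC threshold, SLC19A2 to 0.69 (cadmium, 12 h) and 0.84 (mercury, 24 h), SLC2A10 to 0.92 (arsenic) and 0.72 (mercury), SLC26A11 to 0.77, SLC25A1 to -0.99, SLC25A10 to -0.86, and SLC25A25 to 0.88 (3 h).

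**Figure D1:**
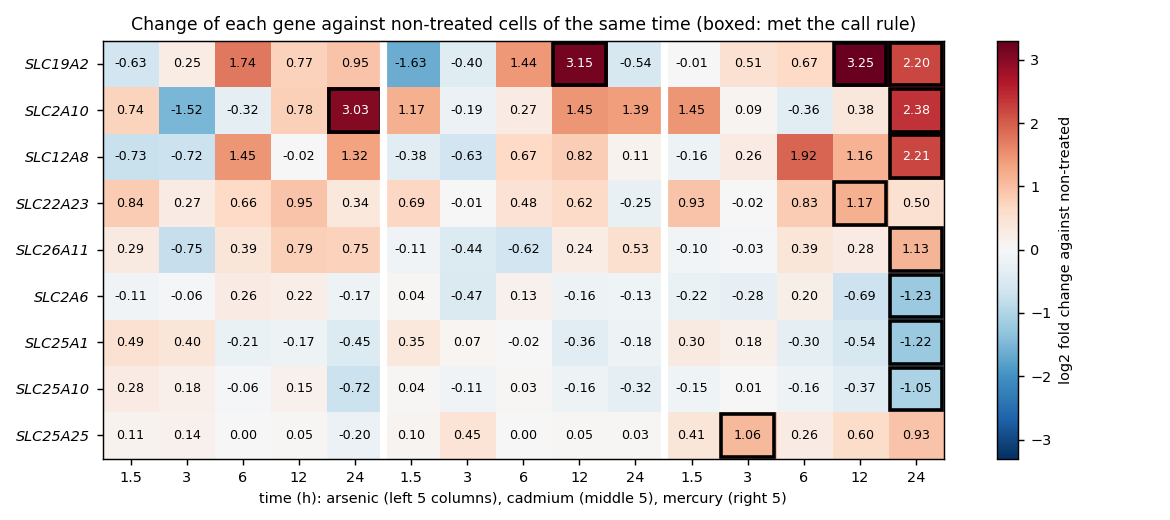
LFC of each gene (rows) against time-matched non-treated cells, for arsenic, cadmium, and mercury at 1.5 to 24 h (columns), with red for higher and blue for lower levels and a black box where the call rule was met. Of the boxed values, 10 lie in the mercury columns, and the values run from -1.63 to 3.25.

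For each gene, the comparisons in which neither group had contributed to a call of that gene were tested. The remaining comparisons are given as levels and LFC without a test. Libraries that did not choose a gene are meant in this sense, by the call rule alone. The genes were picked as changed with a metal, with earlier results known, so smaller changes may have entered the choice. The p values of these tests may thus not be free of it. Of 105 comparisons with non-treated cells tested in this way, 6 passed at an adjusted p under 0.05 (edgeR). Of these, 5 had higher and 1 had lower levels in treated cells. Of the 105, 33 were of the 3 genes that reached the filter's level in few libraries, of which 0 passed (4 at an unadjusted p under 0.05), and these are not read against the share over all genes. The other 72 held the 6 that passed. Over all genes, 5.71% of values passed in the 15 comparisons. Of 113 comparisons between metals, 5 passed, all among the 78 of the same 6 genes, against 4.86% over all genes. Of 26 comparisons of non-treated cells with those at 1.5 h, 1 passed, among 18 of the same 6 genes, against 2% over all genes. The shares over all genes pool every comparison, with mercury at 24 h (27.8% passed) among them. A gene called there could not enter that comparison, so the shares are not like for like and are not compared. The 12 values that passed belonged to SLC22A23, SLC25A25, and SLC2A6. Of 72 tests of whether the effect of a metal changed between neighboring time points, 0 passed in edgeR and in DESeq2 (0.507% over all genes), and 6 had an unadjusted p under 0.05.

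**Figure D2:**
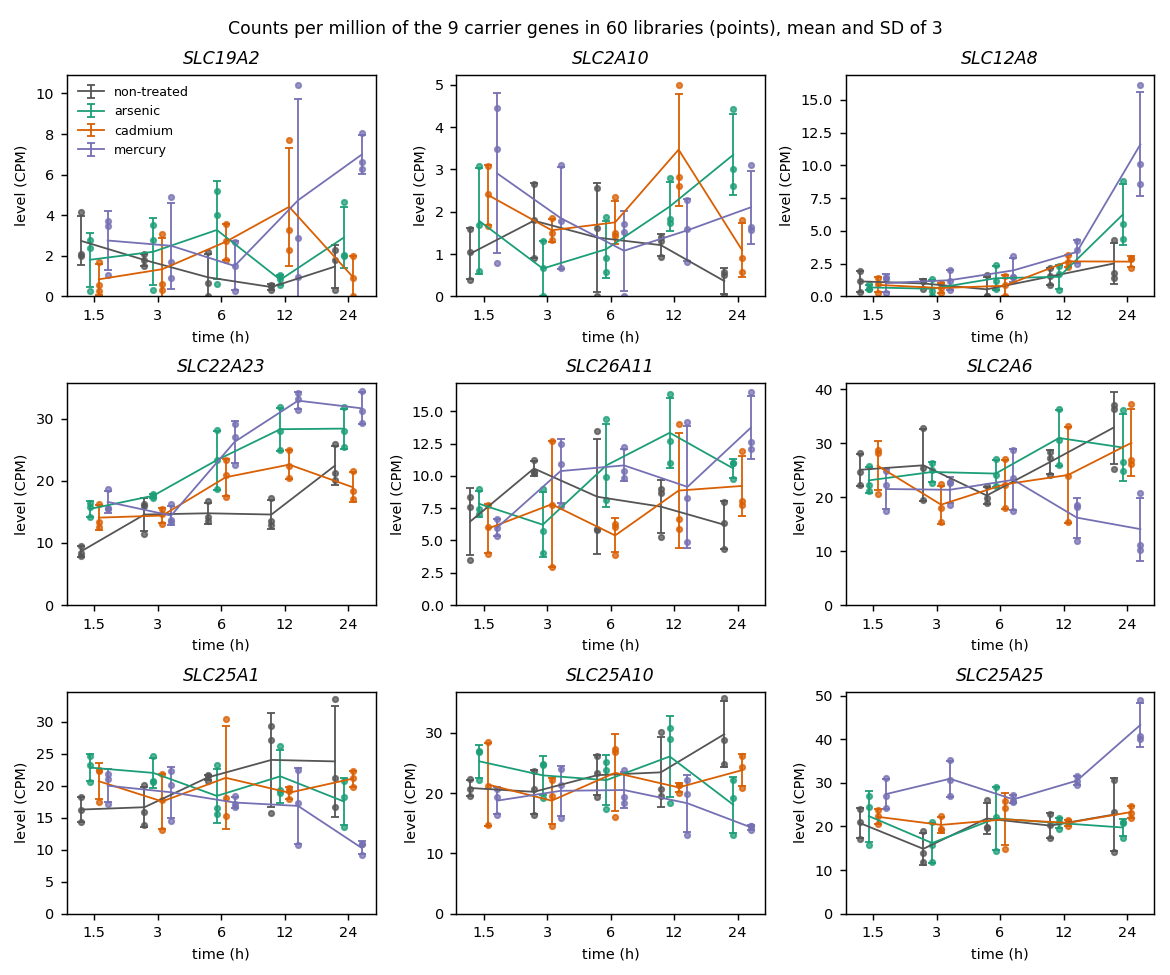
Level of each gene in CPM (vertical axes, from 0) against time in h (horizontal axes, evenly spaced) in non-treated, arsenic-, cadmium-, and mercury-treated cells. Points are the 60 libraries, and lines with bars give the mean and SD of 3 libraries. The mercury points of SLC25A25 at 24 h lie at 40 to 49.1 CPM and those of SLC25A1 at 9.13 to 10.9 CPM.

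SLC19A2 (ENSG00000117479.15, chr1:169463909-169485944 of GRCh38, minus strand) encodes the high-affinity thiamine carrier of the plasma membrane. Its counts were low, with 0 to 32 per library and a median of 2.0 CPM. In mercury-treated cells at 24 h, the 3 libraries had 6.61, 8.06, and 6.28 CPM, and the non-treated libraries had 1.80, 0.307, and 2.31 CPM. There was no overlap, and the LFC was 2.20 ± 0.73 (SE). At 12 h, the non-treated libraries held 2, 1, and 2 counts, at the floor. Their mean of 0.464 CPM was the lowest of the 20 groups. Non-treated cells had 2.74, 1.80, 0.945, and 1.47 CPM at 1.5, 3, 6, and 24 h. Cadmium and mercury at 12 h had 4.41 and 4.73 CPM, so the ratios that follow rest on this low control. SLC19A2 was also chosen on both comparisons, so the ratios and their intervals are a description and no test. The cadmium libraries held 5, 10, and 22 counts, which were 9.68 times the non-treated counts per normalized library size (95% exact interval 3.79 to 31.5, counting error only). The mercury libraries held 7, 32, and 3 counts, a ratio of 10.3 (4.09 to 33.4). One mercury library thus held most of these counts, and without it (replicate 2) the call was lost, with an LFC of 1.90 in place of 3.25. The cadmium call (LFC 3.15) was lost without cadmium replicate 3 (2.48) and without non-treated replicate 1 (3.29), 2 (2.97), or 3 (3.24). The 24 h mercury call was lost without non-treated replicate 2 (1.75) or mercury replicate 2 (2.09).

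With arsenic, SLC19A2 met the call rule at no time point. The arsenic libraries had 0.600, 4.01, and 5.22 CPM at 6 h, where the non-treated libraries had 0, 2.19, and 0.642 CPM. These groups overlapped, and the LFC of 1.74 ± 0.87 did not pass (adjusted p = 0.521, edgeR). With so few counts, a change cannot be told from none. Cadmium at 24 h, with 0.971 ± 1.0 CPM (SD, n = 3), was back near the non-treated 1.47 ± 1.04 CPM, whereas mercury at 24 h gave the highest mean of the 20 groups. Of the 11 tested genes for the uptake and use of thiamine, SLC19A2 was the gene that met the call rule. At 24 h of mercury, when 27.8% of all genes passed, 2 of the 11 passed as higher and 3 as lower, with a median LFC of -0.27 against -0.02 over all genes. A wider list held 10 tested carriers of other vitamins and of further metabolites, such as SLC33A1, which carries acetyl-CoA. Of these 10, 0 met the call rule with any metal, and with mercury at 24 h, 1 passed as higher and 2 as lower (median LFC -0.17).

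SLC2A10 (ENSG00000197496.6, chr20:46709649-46736347, plus strand) encodes GLUT10, which carries glucose and the oxidized form of vitamin C and is mutated in arterial tortuosity syndrome. It had 0 to 18 counts per library. At 24 h, the non-treated libraries held 2, 0, and 2 counts, at the floor and the lowest mean of the 20 groups. The arsenic libraries held 9, 9, and 15 counts, and the mercury libraries held 5, 10, and 5. Both metals thus lay above the non-treated range, with ratios of 8.89 (95% exact interval 3.16 to 34.5) for arsenic and 5.62 (1.88 to 22.6) for mercury. These intervals cover counting error only. SLC2A10 was chosen on both comparisons, so the ratios and intervals are a description and no test. The LFC was 3.03 ± 0.81 and 2.38 ± 0.86 in the fit. The arsenic call was lost without non-treated replicate 2 (LFC 2.54), and the mercury call without non-treated replicate 1 (2.69) or 2 (1.89) or mercury replicate 2 (2.01). The mercury call was also lost without the filter on low counts (2.39). Cadmium gave the highest mean at 12 h, 3.47 ± 1.32 CPM against 1.21 ± 0.251 CPM in non-treated cells.

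SLC2A6 (ENSG00000160326.14, chr9:133471094-133479127, minus strand) encodes GLUT6, a hexose carrier of lysosomal membranes. Of the 50-base stretches of its 3′ end, 5.11% also occur in other genes, and reads from these could be assigned elsewhere. Its level was 24.0 CPM in the median library. With mercury at 24 h, the libraries had 20.8, 11.2, and 10.2 CPM, against 37.1, 25.2, and 36.4 CPM in non-treated cells. The mercury libraries lay below the non-treated range, with an LFC of -1.23 ± 0.23. At 12 h, in libraries that did not choose the gene, mercury gave 11.9, 18.5, and 18.2 CPM, and non-treated cells 24.1, 27.2, and 28.3 CPM. Without overlap between the groups, SLC2A6 fell with an LFC of -0.69 ± 0.23 (adjusted p = 0.0317, edgeR), at a time when 16% of all genes passed. This comparison no longer passed without non-treated replicate 2 (-0.67, adjusted p = 0.0771) or 3 (-0.64, 0.0943) or without mercury replicate 1 (-0.52, 0.194).

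Arsenic at 12 h left SLC2A6 at 36.4, 30.5, and 26.0 CPM. The level with arsenic exceeded that with mercury by an LFC of 0.92 ± 0.23 (adjusted p = 0.00668, edgeR; 6.84% of all genes passed). Without arsenic replicate 1 or mercury replicate 1 the adjusted p was 0.0722 or 0.0741. Cadmium at 12 h was 24.1 ± 8.93 CPM, and its difference from mercury did not pass (LFC 0.53, 95% interval 0.05 to 1.01, adjusted p = 0.292, edgeR). The 2 lowest of the 20 group means were those of mercury at 24 h and 12 h. At 1.5, 3, and 6 h, mercury gave LFCs of -0.22, -0.28, and 0.20, and none passed.

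Of the 7 hexose carriers of the SLC2 family that were tested, 3 met the call rule, SLC2A10, SLC2A6, and SLC2A3. SLC2A3, the high-affinity glucose carrier GLUT3, was 70.1 ± 3.95 CPM with mercury at 24 h against 24.3 ± 0.657 CPM in non-treated cells (LFC 1.53 ± 0.17, adjusted p = 2.35e-11, edgeR). In mercury-treated cells at 24 h, the family held 2 genes that passed as higher and 2 as lower, with a median LFC of 0.15. In that comparison, 27.8% of all genes passed in either direction.

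SLC12A8 (ENSG00000221955.11, chr3:125082636-125212864, minus strand) belongs by sequence to the cation-chloride carriers and has been described as a carrier of nicotinamide mononucleotide, a precursor of NAD. It had 0 to 52 counts per library. At 24 h, the mercury libraries had 10.1, 16.1, and 8.59 CPM, and the non-treated libraries had 1.80, 4.30, and 1.44 CPM. The mercury libraries lay above the non-treated range, with an LFC of 2.21 ± 0.56 (1.90 to 2.81 whichever library was left out). The call rule was met each time, but SLC12A8 was chosen on this comparison. It reached the filter's level in all 3 libraries of a group only with mercury or arsenic at 24 h, so these values are a description. Arsenic at 24 h, with 4.35, 5.50, and 8.84 CPM, lay above the non-treated libraries as well, and its LFC of 1.32 ± 0.57 fell short of the call rule. Mercury at 24 h and arsenic at 24 h were the 2 highest of the 20 group means. Arsenic at 24 h was 6.23 ± 2.33 CPM and cadmium 2.66 ± 0.437 CPM.

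At 1.5 and 3 h, the 24 libraries of all treatments had at most 2.03 CPM of SLC12A8. At 6 h, mercury gave 3.05, 1.45, and 1.47 CPM and non-treated cells 1.63, 0, and 0 CPM. These groups overlapped, and the LFC of 1.92 ± 0.86 did not pass (adjusted p = 0.177, edgeR). At counts this low, the miss does not show that the level was unchanged. Without non-treated replicate 1 the call rule was met, but the remaining non-treated libraries held 0 counts, so that the fitted LFC of 5.73 depends on the prior count of the fit. At 12 h the mercury level was 3.4 ± 0.884 CPM. Of 5 tested SLC12 genes, SLC12A8 was the gene that met the call rule. With mercury at 24 h, 1 other gene passed as lower, while 27.8% of all genes passed in either direction. Of 11 tested genes for the synthesis and use of NAD, 2 met the call rule. These were NMNAT1, which makes NAD in the nucleus (11.2 ± 3.95 CPM with cadmium at 12 h against 4.35 ± 0.955 CPM, LFC 1.36 ± 0.43, adjusted p = 0.0363, edgeR), and NNMT, which methylates nicotinamide. NNMT was 68.3 ± 4.30 CPM with arsenic at 24 h against 29.9 ± 5.45 CPM in non-treated cells (LFC 1.19 ± 0.19, adjusted p = 1.45e-06, edgeR). After 24 h of mercury, 3 of the 11 passed as higher and 0 as lower, against 27.8% of all genes in either direction.

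SLC22A23 (ENSG00000137266.15, chr6:3268962-3457050, minus strand) belongs to the organic ion carriers of the SLC22 family, and its substrate is not settled. It met the call rule with mercury at 12 h, where the libraries had 33.1, 31.4, and 34.2 CPM against 17.3, 13.6, and 12.8 CPM in non-treated cells. The groups lay far apart (LFC 1.17 ± 0.18, 1.08 to 1.32 whichever library was left out), in the comparison the gene was chosen on. Compared with the same non-treated libraries, arsenic gave 28.0, 31.9, and 25 CPM (LFC 0.95 ± 0.18) and cadmium 25, 22.4, and 20.4 CPM (LFC 0.62 ± 0.18). At 12 h, the 9 libraries of the 3 metals thus lay above the 3 non-treated libraries. Arsenic also met the call rule without non-treated replicate 1 (LFC 1.10) or arsenic replicate 3 (1.04).

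In libraries that did not choose SLC22A23, it rose with mercury at 3 further time points. At 1.5 h, mercury gave 18.7, 15.5, and 15.6 CPM and non-treated cells 9.56, 8.37, and 7.96 CPM. The groups did not overlap, and the LFC was 0.93 ± 0.20 (adjusted p = 0.00556, edgeR; 0.567% of all genes passed). At 6 h, mercury gave 29.2, 27.0, and 22.6 CPM and non-treated cells 16.7, 13.5, and 14.1 CPM, again without overlap (LFC 0.83 ± 0.18, adjusted p = 0.00100, edgeR; 7.48% of all genes passed). At 24 h, the values were 29.3, 31.3, and 34.4 CPM with mercury and 20.1, 21.2, and 26.0 CPM without. The mercury libraries lay above the others, and SLC22A23 rose with an LFC of 0.50 ± 0.17 (adjusted p = 0.0200, edgeR), while 27.8% of all genes passed. At 3 h, mercury gave 16.2, 13.7, and 13.3 CPM, within the non-treated range of 11.5 to 16.2 CPM. None of these 3 met the call rule, as the LFC was below 1. The 6 h comparison passed whichever library was left out. That at 1.5 h no longer passed without non-treated replicate 2 (LFC 0.90, adjusted p = 0.0554) or 3 (0.89, 0.0642) or mercury replicate 1 (0.84, 0.0729). That at 24 h no longer passed without non-treated replicate 1 (0.43, 0.101) or 2 (0.46, 0.0709) or mercury replicate 3 (0.44, 0.0818). Without the filter on low counts, the adjusted p was 0.122 at 1.5 h and 0.142 at 24 h, and in a fit of only the 6 libraries compared it was 0.0927 and 0.0520.

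SLC22A23 also changed in culture without a metal. Non-treated cells had 8.63 ± 0.829 CPM at 1.5 h, 14.6 ± 2.63 CPM at 3 h, 14.8 ± 1.70 CPM at 6 h, 14.6 ± 2.41 CPM at 12 h, and 22.4 ± 3.12 CPM at 24 h. The rise from 1.5 to 24 h had an LFC of 1.37 ± 0.20 (adjusted p = 2.65e-06, edgeR), a comparison in which 3.29% of all genes passed. From 1.5 to 3 h and to 6 h the LFCs were 0.75 and 0.76, which did not pass (adjusted p = 0.274 and 0.0802, edgeR). The non-treated mean at 1.5 h was the lowest of the 20 groups, and the 3 comparisons at 1.5 h share its libraries. Arsenic gave 15.5 ± 1.24 CPM and cadmium 14.1 CPM at 1.5 h, close to the non-treated level at 3 h, and both differences missed the threshold (LFC 0.84 and 0.69, adjusted p = 0.0889 and 0.422, edgeR).

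At 24 h the metals differed in SLC22A23. Cadmium libraries had 17.0, 18.3, and 21.6 CPM, and arsenic libraries had 25.4, 31.8, and 28.0 CPM. Neither the arsenic nor the mercury libraries overlapped those of cadmium. Mercury exceeded cadmium by an LFC of 0.75 ± 0.17 (adjusted p = 0.000778, edgeR; 20% of all genes passed), which held without any 1 library. Arsenic exceeded cadmium by 0.59 ± 0.17 (adjusted p = 0.0158; 10.2% of all genes passed). The latter was lost without arsenic replicate 2 (LFC 0.51, adjusted p = 0.106) or cadmium replicate 1 (0.52, 0.0911), without the filter (adjusted p = 0.140), and with only 6 libraries (0.108). Both comparisons share the cadmium libraries, whose level was 19.0 ± 2.33 CPM against 22.4 ± 3.12 CPM in non-treated cells. Of 4 tested SLC22 genes, SLC22A23 was the gene that met the call rule.

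**Figure D3:**
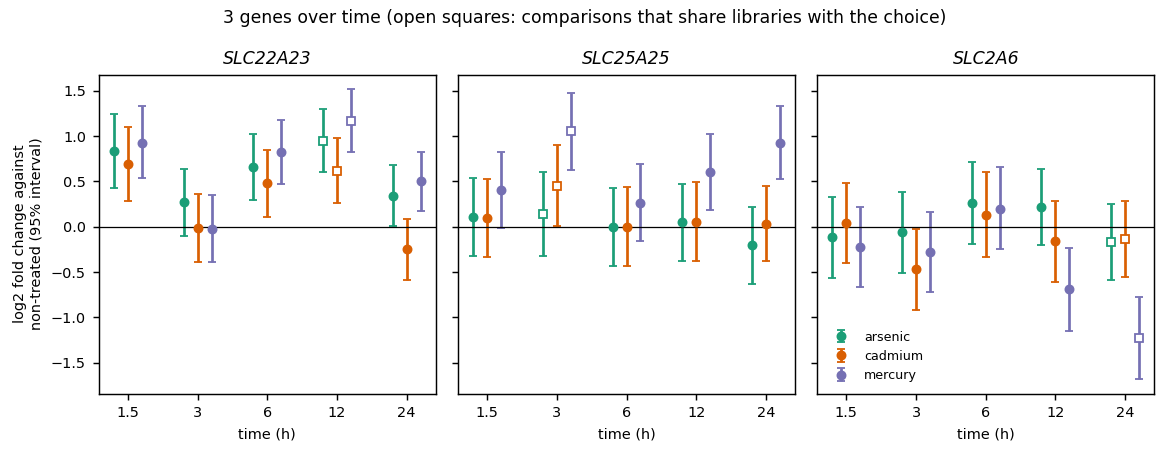
LFC against non-treated cells (vertical axis) with its 95% interval, by time in h, for SLC22A23, SLC25A25, and SLC2A6 with arsenic, cadmium, and mercury. Filled circles are comparisons whose libraries did not choose the gene and open squares those that share libraries with the choice. The mercury points of SLC25A25 lie between 0.26 and 1.06, while its arsenic points lie between -0.20 and 0.14.

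SLC26A11 (ENSG00000181045.15, chr17:80219699-80253500, plus strand) encodes an exchanger of sulfate and chloride. With mercury at 24 h, its libraries had 12.6, 12.1, and 16.5 CPM, and the non-treated libraries had 7.98, 4.30, and 6.35 CPM. The groups did not overlap, and the LFC was 1.13 ± 0.36, which fell below 1 without non-treated replicate 2 (0.93) or mercury replicate 3 (0.97). Arsenic at 12 h gave 16.3, 12.7, and 11 CPM against 8.95, 5.25, and 8.64 CPM, also without overlap, but the LFC of 0.79 ± 0.35 did not pass (adjusted p = 0.226, edgeR). These were the 2 highest group means, 13.7 and 13.3 CPM. The lowest was that of cadmium at 6 h, 5.39 ± 1.31 CPM, whose differences from arsenic and mercury (LFC 1.01 ± 0.38 for each) did not pass (adjusted p = 0.274 and 0.136, edgeR).

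Of 16 tested genes of sulfate use and lysosomal sulfatases, 4 met the call rule in at least 1 comparison, a count without a matching share over all genes. IDS, a lysosomal sulfatase, was 6.61 ± 0.456 CPM with mercury at 3 h against 1.59 ± 0.862 CPM (LFC 2.02 ± 0.53, adjusted p = 0.0251, edgeR). SUOX, the sulfite oxidase of mitochondria, was 2.28 ± 1.14 CPM with mercury at 6 h against 6.19 ± 0.634 CPM (LFC -1.44 ± 0.40, adjusted p = 0.0142). PAPSS2, which makes the activated form of sulfate, was 19.4 ± 4.65 CPM with mercury at 24 h against 7.36 ± 2.75 CPM (LFC 1.41 ± 0.29, adjusted p = 8.25e-05). With mercury at 24 h, 1 gene of the list passed as higher and 2 as lower, against 27.8% of all genes in either direction, with a median LFC of -0.11. Of 3 tested SLC26 genes, SLC26A11 was the gene that met the call rule.

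SLC25A1 (ENSG00000100075.10, chr22:19175581-19178739, minus strand) encodes the citrate carrier, which supplies cytosolic citrate for the synthesis of fatty acids and sterols. SLC25A10 (ENSG00000183048.12, chr17:81712236-81721016, plus strand) encodes the dicarboxylate carrier. Both had their lowest group mean with mercury at 24 h. SLC25A1 had 9.13, 10.8, and 10.9 CPM there, against 33.5, 21.2, and 16.7 CPM in non-treated cells. SLC25A10 had 13.8, 14.6, and 14.5 CPM, against 28.8, 35.7, and 24.8 CPM. Neither pair of groups overlapped, the mercury libraries lay close together, and the non-treated libraries spread widely. The LFC was -1.22 ± 0.25 for SLC25A1 and -1.05 ± 0.23 for SLC25A10. Without non-treated replicate 1 that of SLC25A1 was -0.87, and without non-treated replicate 2 that of SLC25A10 was -0.91, so that each then missed the LFC threshold.

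With arsenic at 24 h, SLC25A10 was 19.1, 13.0, and 22.1 CPM, below the non-treated libraries (LFC -0.72 ± 0.22), and SLC25A1 was 20.7, 13.6, and 18.3 CPM, which overlapped them (LFC -0.45 ± 0.23). With cadmium at 24 h, SLC25A1 was 21.1 ± 1.26 CPM and SLC25A10 23.8 ± 2.67 CPM, with LFCs of -0.18 and -0.32. At 12 h, mercury gave LFCs of -0.54 ± 0.24 for SLC25A1 and -0.37 for SLC25A10. The former did not pass (adjusted p = 0.118, edgeR), and its libraries of 22.5, 10.7, and 17.3 CPM overlapped the non-treated 27.1, 15.7, and 29.3 CPM. In non-treated cells, SLC25A1 was 16.3 ± 2.00 CPM at 1.5 h and 23.8 ± 8.67 CPM at 24 h, and SLC25A10 was 20.8 ± 1.38 and 29.8 ± 5.48 CPM. Over the 20 group means of log2 CPM, the 2 genes correlated at r = 0.847, the highest value between any 2 of the 9 genes. This is a description over groups that share normalization.

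RefSeq (GRCh38.p14) windows from 250 bases before to 50 after a start site were found for 8 of the 9 genes, with 11 windows in all, but not for SLC26A11. Capitals mark TGACNNNGC, the letters of the antioxidant response element, searched on both strands and present in 13.3% of 35116 windows and in 2 of the 11. These 2 windows, of SLC25A1 and SLC25A25, are shown because they hold the letters, so that they do not stand for the other carriers that were lowest or highest with mercury. The window shown lies at chr22:19178687-19178986 (minus strand).
SLC25A1: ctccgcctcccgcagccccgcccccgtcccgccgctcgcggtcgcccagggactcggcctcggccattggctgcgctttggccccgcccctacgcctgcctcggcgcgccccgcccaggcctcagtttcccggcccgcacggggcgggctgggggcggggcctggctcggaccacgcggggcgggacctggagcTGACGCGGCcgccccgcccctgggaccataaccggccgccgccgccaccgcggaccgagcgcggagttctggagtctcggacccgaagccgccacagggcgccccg
The window of SLC25A1 holds the letters once, from base -56 relative to the start site. Its GC content was 80.3%, against a median of 58.7% over all windows. No match to the letters of the C/EBP-ATF element (TGATGNAAN, 3.61% of all windows), the heat shock element (GAANNTTC, 6.77%), the sterol element (TCACNCCAC, 1.13%), or the E-box (CACGTG, 7.26%) was found in the 11 windows. The letters TGCNCNC, a looser pattern than the metal response element core, occur in 55.9% of all windows and are not marked.

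Among 23 tested genes of citrate and dicarboxylate metabolism, which were enzymes and the carrier SLC25A11, 3 met the call rule. ME1, the cytosolic malic enzyme, was 67.1 ± 5.10 CPM with mercury at 24 h against 25 ± 3.91 CPM (LFC 1.43 ± 0.19, adjusted p = 1.02e-08, edgeR). GOT1, the cytosolic aspartate aminotransferase, was 125 ± 7.06 CPM with mercury at 12 h against 62.4 ± 2.76 CPM (LFC 1.0 ± 0.13, adjusted p = 1.14e-08, edgeR). PC, the pyruvate carboxylase of mitochondria, held 5 counts in the 3 mercury libraries at 24 h and 44 in the non-treated libraries. The ratio was 0.128 per normalized library size (95% exact interval 0.0395 to 0.321, counting error only). In the fit, the LFC was -2.88 ± 0.71 (adjusted p = 0.00128, edgeR). After 24 h of mercury, 4 of the 23 passed as higher and 4 as lower, against 27.8% of all genes in either direction, with a median LFC of -0.16.

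SLC25A25 (ENSG00000148339.13, chr9:128068201-128109245, plus strand) encodes a calcium-regulated carrier that adjusts the pool of adenine nucleotides in mitochondria. The 5 highest of its 20 group means were those of mercury at the 5 time points. With mercury at 3 h, where the gene met the call rule, the libraries had 35.2, 30.7, and 27.0 CPM and the non-treated libraries 11.8, 18.9, and 13.9 CPM. The groups did not overlap, with an LFC of 1.06 ± 0.22, which fell below 1 without non-treated replicate 1 (0.90) or mercury replicate 1 (0.96). The non-treated mean at 3 h, 14.8 ± 3.64 CPM, was the lowest of the 20 groups.

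At 12 and 24 h, in libraries that did not choose SLC25A25, the gene rose with mercury. At 24 h, mercury gave 49.1, 40.9, and 40 CPM and non-treated cells 23.4, 30.7, and 14.1 CPM. The groups did not overlap, and 27.8% of all genes passed in this comparison. The LFC was 0.93 ± 0.20 (adjusted p = 0.000243, edgeR). It lay between 0.70 and 1.20 whichever library was left out. At 12 h, mercury gave 29.5, 31.7, and 30.4 CPM and non-treated cells 20.4, 22.9, and 17.3 CPM. These groups did not overlap either (LFC 0.60 ± 0.21, adjusted p = 0.0406, edgeR), at a time when 16% of all genes passed. The 12 h comparison no longer passed without non-treated replicate 1 (adjusted p = 0.0913) or 3 (0.171) or without mercury replicate 1 (0.0610), 2 (0.115), or 3 (0.0846). Nor did it pass without the filter on low counts (0.0718). At 1.5 and 6 h, the mercury LFCs of 0.41 and 0.26 did not pass.

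Arsenic and cadmium left SLC25A25 at lower levels than mercury at 24 h. Arsenic libraries had 21.1, 20.8, and 17.4 CPM, and cadmium libraries had 22.0, 23.2, and 24.8 CPM, all below the lowest mercury library. The difference between arsenic and mercury was an LFC of -1.13 ± 0.21 (adjusted p = 4.8e-05, edgeR), where 11.4% of all genes passed. That between cadmium and mercury was -0.90 ± 0.20 (adjusted p = 0.000644, edgeR), where 20% of all genes passed. Both held whichever library was left out, and both share the mercury libraries with the comparison with non-treated cells. At 12 h, arsenic and cadmium each gave a mean of 20.8 CPM against 30.5 ± 1.14 CPM with mercury, differences that did not pass (LFC -0.56, adjusted p = 0.0955, and LFC -0.55, adjusted p = 0.190, edgeR).

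A gene on the opposite strand, SLC25A25-AS1, overlaps the 3′ end of SLC25A25, and reads were counted by strand. It had 0 to 16 counts per library (mean 1.76 CPM). With mercury, LFCs of 0.25 (3 h), 0.79 (12 h), and 0.94 (24 h) were found for it, and none passed (adjusted p = 0.975, 0.529, and 0.372, edgeR). Its part in the SLC25A25 values was not tested.

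SLC25A25 has 3 start sites with a RefSeq window. The window of the first start (chr9:128067982-128068281) holds the antioxidant response letters 2 times, from bases -209 and 24. That of the last start (chr9:128098257-128098556) holds TGACGTCA, the letters of the cAMP response element, from base -200, a palindrome that was looked for after the window had been seen and occurs in 1.85% of all windows. Both windows are shown for the letters they hold, which are in capitals.
SLC25A25, first start: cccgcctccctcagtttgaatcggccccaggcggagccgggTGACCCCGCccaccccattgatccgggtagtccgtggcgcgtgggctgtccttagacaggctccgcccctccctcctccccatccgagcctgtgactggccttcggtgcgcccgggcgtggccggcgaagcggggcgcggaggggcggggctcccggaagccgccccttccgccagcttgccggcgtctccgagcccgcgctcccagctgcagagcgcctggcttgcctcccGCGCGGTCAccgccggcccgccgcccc
SLC25A25, last start: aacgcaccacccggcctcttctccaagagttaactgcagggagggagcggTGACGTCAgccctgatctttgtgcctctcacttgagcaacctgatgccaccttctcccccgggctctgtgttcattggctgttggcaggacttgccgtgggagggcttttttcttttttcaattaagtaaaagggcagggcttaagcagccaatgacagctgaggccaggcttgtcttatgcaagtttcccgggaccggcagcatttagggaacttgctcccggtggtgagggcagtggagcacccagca
The GC content was 76.3% in the former window and 56.0% in the latter. Reads from the 3′ end do not tell which start site was used, and a match of letters is no evidence that a factor binds there.

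Of 36 tested SLC25 genes, the 3 described here were those that met the call rule. With mercury at 24 h, 3 SLC25 genes passed as higher and 5 as lower, against 27.8% of all genes in either direction, with a median LFC of 0.04. Of 7 other tested SLC25 genes listed as carriers of adenine nucleotides and phosphate, 0 met the call rule or passed with mercury at 24 h. Their median LFC was -0.04, the value of SLC25A17, which is a carrier of peroxisomes and not of mitochondria.

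**Figure D4:**
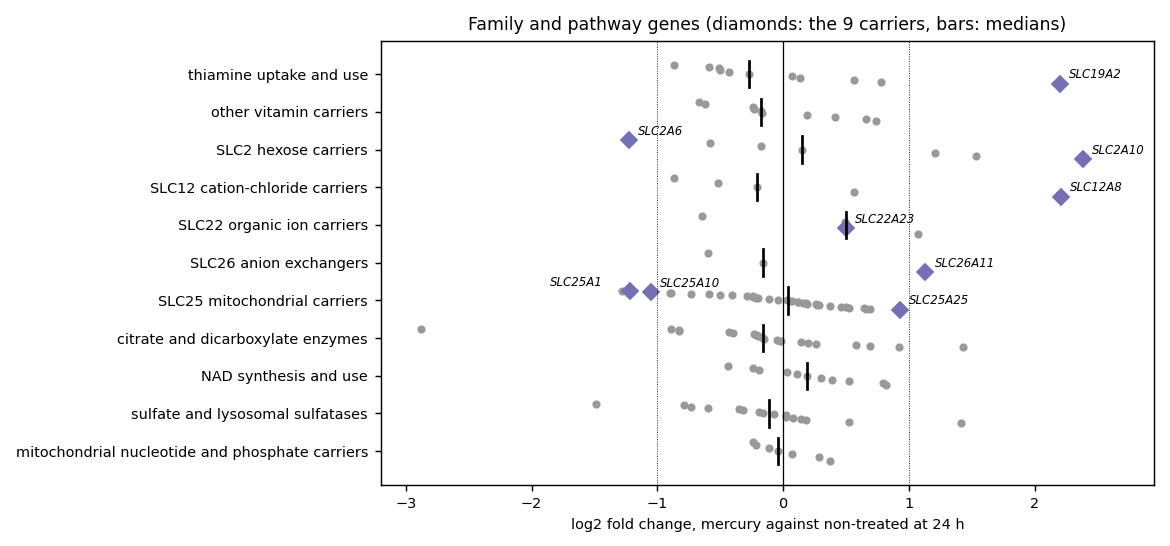
LFC with mercury at 24 h against non-treated cells (horizontal axis) for the tested genes of 11 families and pathways (rows). Diamonds are the 9 carriers, gray points the other genes, bars the median of each list, and dotted lines LFCs of -1 and 1. The carriers lie between -1.23 and 2.38, and the list medians between -0.27 and 0.49. Some lists are wider than their row names. The other vitamin carriers include SLC33A1, and the citrate and dicarboxylate enzymes include the carrier SLC25A11. The mitochondrial nucleotide and phosphate carriers include SLC25A17, a peroxisomal carrier.

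The gene most like each carrier, by Pearson's r over the 20 group means of log2 CPM among the 7253 genes whose counts averaged 50 or more, differed between the carriers. For SLC25A25 these were PIM3 (r = 0.859), SLC2A3 (0.852), and NUMB (0.839). For SLC12A8 they were SDCBP (0.938), ABCC2 (0.923), and AKR1C1 (0.913). SLC2A6 followed SYNGR2 (0.849), SNAP47 (0.844), and SLC2A4RG (0.841), and SLC25A1 followed HMGN2 (0.876), SNAP47 (0.870), and GALK1 (0.865). SLC25A10 followed C20orf27 (0.887), DSEL (0.874), and HCFC1R1 (0.868). SLC22A23 followed NXPE3 (0.899), EIF2S2 (0.889), and NUDT5 (0.881). SLC19A2 followed an unnamed gene (ENSG00000226499, 0.933), DEGS1 (0.924), and ATN1 (0.910). SLC26A11 and SLC2A10 had weaker partners, FAM219A (0.774) and GCC2 (0.737). Each was the best of 7253 genes over 20 points that share libraries and normalization, and SNAP47 was the gene shared by SLC2A6 and SLC25A1.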

How the data were processed

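RNA of 60 libraries was sequenced from the 3′ end with the QuantSeq FWD kit. Per the labels and the study's methods, the authors aligned reads to GRCh38 with STAR 2.7.9a, counted them by strand on exons of GENCODE genes, and deposited whole-number counts per gene without normalization. The table holds 62703 genes and 92 spike-in rows with 0 counts. Secondary alignments and reads that overlapped several genes were not counted, but the primary alignment of a read that fits several places was.

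Counts were fitted in edgeR 4.0.16 (R 4.3.3) with 1 coefficient for each of 20 groups, TMM factors (0.934 to 1.03), and filterByExpr (minimum count 10, minimum total 15), which left 12341 genes. P values of the quasi-likelihood test were adjusted per comparison (Benjamini-Hochberg, over all genes tested). The test was tried on simulated data. No library was taken as a copy of another, as chi-square per degree of freedom was at least 2.00 for any pair of replicates. Replicate numbers were not taken as pairs (median correlation of deviations -0.00799 over 45 pairs). The members and gene lists were chosen with earlier results of these data known. Genes named are the 9 carriers, the SLC genes nearest to the LFC threshold (3 on each side), up to 3 called genes of each list, and up to 3 genes most like each carrier. SLC25A25-AS1 was added later. Of markers of neurons, leukocytes, oligodendrocytes, and endothelium, those with the highest medians were SYP (0.929 CPM) and CD68 (0.298 CPM), with the others at a median of 0 CPM. Alternatives were DESeq2 1.42.0, its LFC shrunk by ashr 2.2.63, RLE size factors, no filter, a minimum count of 30, a replicate block, only the 6 libraries compared, and leaving out each library. The genetic screens were not used here, and 1 promoter window is not reported here.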

Additional observations from a re-analysis of the deposited data

How the results depend on the processing

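The counts of calls were 1 for arsenic, 1 for cadmium, and 10 for mercury. They became 0, 0, and 4 with LFC shrunk by ashr, and 0, 0, and 6 with the stricter filter, which leaves out SLC19A2, SLC2A10, and SLC12A8. With only the 6 libraries compared, the counts were 0, 0, and 8, as SLC19A2 at 12 h and SLC2A10 at 24 h were not tested. Leaving out 1 library gave 0 to 2 calls for arsenic, 0 to 1 for cadmium, and 7 to 11 for mercury. The arsenic count was 0 without non-treated 24 h replicate 2, and 2 without non-treated 12 h replicate 1 or arsenic 12 h replicate 3. The cadmium count was 0 without cadmium 12 h replicate 3 or any 1 of the non-treated 12 h libraries. Of the comparisons with non-treated cells in libraries that did not choose the gene, 6 passed, against 3 without the filter on low counts, where more genes were tested, and 4 to 7 when 1 library was left out. Between metals, 5 passed, and 4 to 6 when 1 library was left out. With the replicate block, the counts were 1, 1, 10, 6, and 5, as without it, and it changed no other count. RLE size factors moved the median of all genes by at most 0.02 in LFC. No direction reversed under the alternatives run. Of the values of single genes, 1541 stayed on their side of the threshold and 51 fell short of it. Most of these fits left out a library of neither group compared, so the 1541 do not measure how stable a result is. Every loss on leaving out 1 library came from a library of the groups compared. Depth limits SLC19A2, SLC2A10, and SLC12A8 most, with medians of 2.0, 1.6, and 1.45 CPM, near the floor of 3 counts. The count intervals given for SLC19A2, SLC2A10, and PC cover counting error only.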
